A study of Homo sapiens with 12 samples.

Results

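The transcriptome of SZ95 sebocytes treated with LA was set beside that of SZ95 sebocytes treated with PGN, gene by gene. SZ95 is an immortalised line of human sebaceous gland cells. LA and PGN are the treatment names in the labels, taken here for linoleic acid, an unsaturated fat that loads sebocytes with lipid, and peptidoglycan, a bacterial cell wall polymer that starts an inflammatory response. The study holds 12 RNA-seq libraries in 4 groups of 3, which are LA, LA+RVT, PGN and PGN+RVT, where RVT stands for the resveratrol of the study's title. All libraries come from the same cell line, each group carries LA or PGN, and no library without a stimulus was analysed here. Doses and treatment times are not given in the sources used here, nor is it said whether replicates came from separate cultures, so any p-value measures the spread between these libraries only.

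The genes compared were those with the same identifier and the same name in the table of LA libraries (60671 genes) and the table of PGN libraries (60666 genes), whose mean was 1 TPM or more over the 3 LA and 3 PGN libraries, where a TPM is a share of the library scaled to transcript length. Of 59198 genes with matching identifier and name, 15001 met this limit, and 12523 of them are protein-coding in GENCODE 29. The genes nearest to the limit were ATP2A1, LINC01910 and OR2W3, each at a mean of 1 TPM just inside it, and AP003065.1, DNM1P35 and DPY19L2P2, each at 0.998 TPM just outside it. The tables were made with different annotations, so stimulus, table and any batch coincide and cannot be told apart. Differences between LA and PGN are therefore given as levels and ranks with no test. The same genes in the 6 RVT libraries share the tables but no library with this comparison, and the change of the PGN minus LA difference with RVT, which is formed from differences within a table, was tested with limma over all 12 libraries.

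As background, bacterial wall fragments are sensed by surface receptors such as TLR2 and by the cytosolic receptor NOD2, whose adaptors release the transcription factor NF-kB from its inhibitors. NF-kB then drives chemokine and cytokine genes together with genes that switch it off again. Fatty acids act on other regulators: PPAR receptors bind them and drive genes for lipid droplets and fatty acid oxidation, while the SREBP factors that drive sterol and fatty acid synthesis respond to the cell's sterol and polyunsaturated fatty acid content. Sebaceous cells make sebum by filling with lipid and breaking up, and they also produce chemokines and antimicrobial proteins.

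Promoter sequence is shown first for 6 genes of the chemokine, cytokine and NF-kB lists, since these lists were on the PGN side and such promoters are known sites of NF-kB binding. Each sequence is 80 bases upstream of the RefSeq gene start on GRCh38.p14, written 5′ to 3′ along the gene's own strand, with matches to GGNNNTTCC, or to GGAANNNCC, its form on the other strand, in capitals.
CXCL1: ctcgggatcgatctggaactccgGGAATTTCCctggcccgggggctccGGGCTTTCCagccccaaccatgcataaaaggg
CXCL2: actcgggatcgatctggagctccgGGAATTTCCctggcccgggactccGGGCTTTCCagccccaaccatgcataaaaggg
CXCL8: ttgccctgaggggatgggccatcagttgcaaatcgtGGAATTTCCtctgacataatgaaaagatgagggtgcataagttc
CCL20: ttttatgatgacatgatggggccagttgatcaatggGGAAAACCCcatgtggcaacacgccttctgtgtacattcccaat
IL6: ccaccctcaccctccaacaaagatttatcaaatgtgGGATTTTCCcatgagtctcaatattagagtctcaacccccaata
TNFAIP3: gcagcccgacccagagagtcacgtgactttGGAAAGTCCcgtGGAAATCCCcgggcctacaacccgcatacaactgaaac

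The stretches lie at chr4:73869292-73869371 (plus strand) for CXCL1, chr4:74099217-74099296 (minus strand) for CXCL2, chr4:73740442-73740521 (plus strand) for CXCL8, chr2:227813727-227813806 (plus strand) for CCL20, chr7:22727092-22727171 (plus strand) for IL6 and chr6:137867162-137867241 (plus strand) for TNFAIP3. CXCL1 and CXCL2, both on chromosome 4, carry the same pair of matches, GGAATTTCC and GGGCTTTCC. Some letters, such as GGAATTTCC, fit both forms and are drawn as 1 match. In all of these genes but CXCL1 the GENCODE 29 gene begins further upstream than the RefSeq start, so part of the stretch, or for CCL20 and IL6 all of it, lies within that longer model. Of 35116 RefSeq promoters, 17.1% held the pattern in the 250 bases upstream of the start, as did 25.9% of the 9986 protein-coding genes compared that had a promoter entry. A gene counts here if any of its promoter entries held the pattern, while the 17.1% counts single entries. Among genes with an entry, it was found for 9 of 10 chemokine genes (90%). It was also found for 12 of 18 NF-kB subunits and feedback genes (66.7%), but for 3 of 11 cytokine genes (27.3%). Among protein-coding genes at least 2-fold higher with PGN (the call rule is given below), 32.7% of the 162 with an entry held it. Among those at least 2-fold higher with LA, 23.6% of 461 did. A match is a description of the letters and shows no binding.

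The libraries of each group ranked the genes almost alike. Spearman's rho across the 15001 genes, which are not independent replicates, was 0.985 to 0.986 between LA libraries and 0.981 to 0.983 between PGN libraries. Between an LA and a PGN library it was 0.941 to 0.947, and between an LA+RVT and a PGN+RVT library 0.958 to 0.963. The same mitochondrial transcripts led both groups: the 5 highest genes of the LA group were MT-CO2, MT-ATP8, MT-ND4L, MT-CO1 and MT-ND4, and MT-CO3 took the place of MT-ND4 among the 5 highest of the PGN group. MT-CO2, a subunit of cytochrome oxidase, stood at 30795 ± 777 TPM in LA and 20340.3 ± 1088 TPM in PGN (SD, n = 3 each). Mitochondrially encoded genes held 13.2% ± 0.279 of all TPM in LA and 10.7% ± 0.217 in PGN, and 84 cytosolic ribosomal protein genes held 14.8% ± 0.283 and 16.2% ± 0.144 (SD, n = 3). A TPM is a share, so these shifts move every other gene's value.

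A gene was called higher in a group when its lowest library there lay above the highest library of the other group and its mean log2(TPM + 1) was at least 1 higher, called a 2-fold difference here. By this rule 348 genes (2.32% of 15001) were higher with PGN and 905 (6.03%) were higher with LA. Without the 2-fold limit, the groups were apart for 2903 genes (19.4%) on the PGN side and for 6958 (46.4%) on the LA side. The whole distribution lay to the LA side: the median PGN minus LA difference was -0.20 and the quartiles were -0.51 and 0.11, against a median SD within groups of 0.112. When the medians of the libraries were equalised the split turned, with 632 genes (4.21%) at least 2-fold higher with PGN and 464 (3.09%) with LA, and with 5133 (34.2%) and 4189 (27.9%) apart in either direction. Differences of gene groups are therefore read below against the median of -0.20, and where it turns the sign of a list's median both are given. Shares of a list that were apart are to be set against the 19.4% and 46.4% of all genes, and changes called by limma against 7.15% lower and 7.88% higher.

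The shift to the LA side was not even across genes. In 4 equal bins of protein-coding genes by mean TPM, the median difference was -0.36 in the lowest bin and then -0.26, -0.17 and -0.00. By length of the longest transcript the medians went from -0.07 in the shortest bin through -0.17 and -0.22 to -0.25 in the longest. With RVT the length bins gave 0.00, -0.12, -0.19 and -0.25, close to the values without it. Pseudogenes (627) were called on the LA side in 14% and on the PGN side in 4.47%, long noncoding and antisense transcripts (1527) in 11.6% and 3.54%, and small RNAs (118) in 3.39% and 15.3%. The part of these trends in any gene's difference was not tested.

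**Figure D1:**
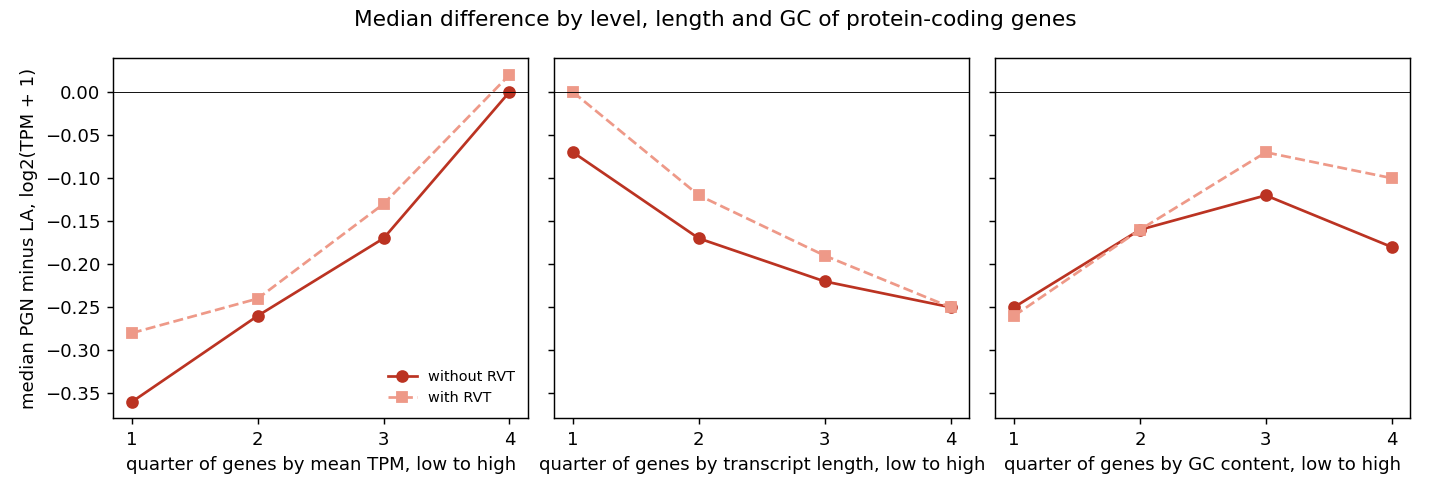
Median PGN minus LA difference (log2(TPM + 1), vertical axis) of protein-coding genes in 4 equal bins by mean TPM, transcript length and GC content (horizontal axes, low to high), without RVT (circles) and with RVT (squares). Without RVT the medians climb from -0.36 to -0.00 with level and go from -0.07 to -0.25 with length, and the RVT libraries follow the same course.

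The labelled cell type was checked on its markers. Of 22 sebocyte markers, 16 were among the genes compared and 2 were listed at 0 in all 6 libraries without RVT. Their median difference was -0.05, or 0.17 with medians equalised, and their summed level was 1771 to 1804 TPM in LA and 2341 to 2446 TPM in PGN. KRT7, a keratin of glandular epithelium and sebocytes, made up most of it. The LA libraries held KRT7 at 1204, 1171 and 1234 TPM and the PGN libraries at 1687, 1820.4 and 1751 TPM. The groups did not overlap, and the difference of 0.54 was smaller with RVT, at 0.19 (change -0.36, SE 0.045, limma adjusted p = 0.000398). MUC1, a mucin found on sebocytes, ran the other way with 127, 143 and 116 TPM in LA and 77, 64.9 and 50.1 TPM in PGN. Its difference was -1.01 in both pairs of groups (change adjusted p = 0.994, limma). Keratinocyte genes were not few: of 28 listed, 19 reached a mean of 1 TPM. That list summed to 919 to 969.9 TPM in LA and 1948 to 1992 TPM in PGN. Markers of fibroblasts, melanocytes, immune cells and endothelium were few. A mean of 1 TPM was reached by 3 of 10 fibroblast markers (COL1A1, FBLN1 and THY1) and 2 of 8 melanocyte markers (MITF and PMEL). It was also reached by 1 of 14 immune cell markers (CD68) and 1 of 8 endothelial markers (CDH5). Summed fibroblast markers were 113 to 123 TPM in LA and 77.3 to 94.3 TPM in PGN, melanocyte markers 25.9 to 27.9 and 19.4 to 25, immune markers 45.6 to 50.6 and 32.3 to 35.7, and endothelial markers 17.6 to 18.1 and 24.9 to 26.5. In bulk RNA, a change in the share of cells of a type and a change of RNA per cell cannot be told apart.

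Chemokines were the gene group furthest to the PGN side. Of 12 chemokine genes compared (of 14 listed), 7 were at least 2-fold higher with PGN and 1 with LA, with a median difference of 2.09. CXCL1, CXCL8 and CCL20, which attract neutrophils and, for CCL20, dendritic cells and T cells, were each over 20 times higher by mean TPM in PGN. With RVT in both groups the median was 0.18. The limma test called a lower PGN minus LA difference with RVT for 8 of the 12 and a higher one for none, where 7.15% of all genes were called lower and 7.88% higher. Genes on these lists were chosen with the stimulus difference known and the test uses the same libraries, so this count is no independent evidence of a direction.

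CXCL1 (chr4:73869393-73871242, GRCh38 as for the positions below, from GENCODE 29) stood at 27.8, 30.9 and 32.2 TPM with LA, against 753, 705 and 614 TPM with PGN. With RVT it stood at 43.7, 43.1 and 37 TPM in LA+RVT and at 95.1, 94.3 and 86.4 TPM in PGN+RVT. Every PGN library was above every LA library in both pairs of groups, and the gap was far smaller with RVT. The fold between group means was 22.8 without RVT, and the log2 difference changed from 4.46 to 1.14. Within its library, CXCL1 ranked between 4785 and 5395 of 15001 in LA and between 185 and 208 in PGN.

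CXCL8 (chr4:73740506-73743716), the neutrophil attractant interleukin 8, was at 9.61, 9.86 and 11.5 TPM in LA and at 277, 231 and 191 TPM in PGN. In LA+RVT it was at 7.76, 7.4 and 7.8 TPM and in PGN+RVT at 27.1, 24.9 and 25.5 TPM. The groups were apart in both pairs. The difference of 4.36 became 1.63 with RVT (change -2.72, SE 0.16, limma adjusted p = 1.67e-06).

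CXCL2, like CXCL1 a ligand of the neutrophil receptor CXCR2, was at 3.51, 2.85 and 2.95 TPM in LA and at 37.6, 39.2 and 25.4 TPM in PGN. With RVT the groups met: 4.97, 5.09 and 3.56 TPM in LA+RVT against 4.89, 6.66 and 5.5 TPM in PGN+RVT. CCL20 was at 0.46, 0.35 and 0.69 TPM in LA and at 15.8, 11.1 and 8.88 TPM in PGN, and it was at or below 0.51 TPM in all 6 RVT libraries. The chemokine higher with LA was CCL28, an epithelial chemokine of mucosal surfaces, at a mean of 9.66 TPM in LA and 2.91 TPM in PGN. CCL28 was named after its value was seen.

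**Figure D2:**
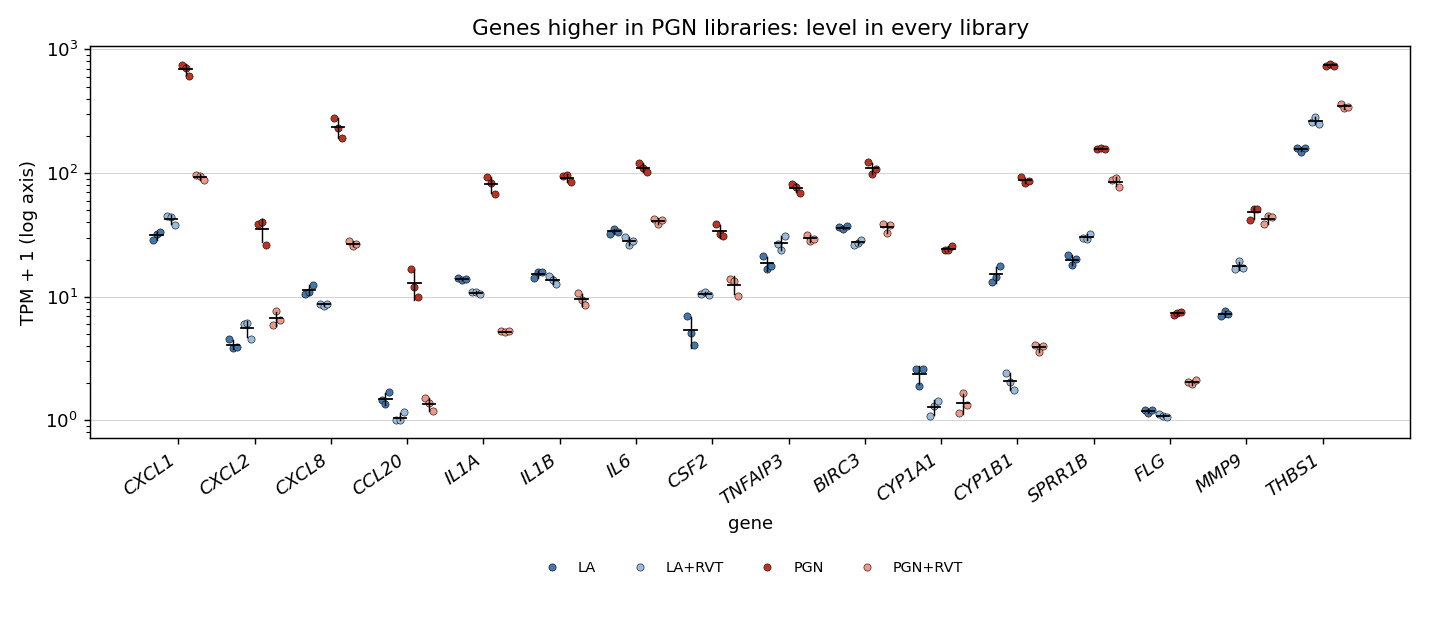
TPM + 1 (log axis) of 16 genes higher in PGN, in every library: LA (dark blue), LA+RVT (light blue), PGN (dark red) and PGN+RVT (light red); points are libraries, horizontal bars the mean and vertical bars 1 SD (n = 3). For CXCL1 the PGN points sit at 614 to 753 TPM and the LA points at 27.8 to 32.2 TPM, while the PGN+RVT points of IL1A, at 4.17 to 4.25 TPM, sit below the LA+RVT points.

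Of 16 cytokine genes compared (of 21 listed), 6 were at least 2-fold higher with PGN and 1 with LA, and the median difference was 0.74. The 6 were IL1A, IL1B, IL6, IL24, CSF2 and CSF3, the last named after its value was seen. IL1B (chr2:112829751-112836903), which is cut to an active form by inflammasome caspases, was at 13.1, 14.8 and 14.8 TPM in LA and at 93, 96.3 and 83.7 TPM in PGN. IL1A, an alarmin released from damaged epithelial cells, was at 13.2, 12.6 and 12.8 TPM in LA and at 91.9, 81.6 and 66.9 TPM in PGN. For both genes the order of the groups turned with RVT. IL1B was at 13.8, 12.6 and 11.7 TPM in LA+RVT and at 9.63, 8.36 and 7.58 TPM in PGN+RVT, a difference of -0.52 in place of 2.59 (change -3.12, SE 0.13, limma adjusted p = 1.49e-07). IL1A was at 9.88, 10 and 9.49 TPM in LA+RVT and at 4.25, 4.17 and 4.25 TPM in PGN+RVT, a difference of -1.05 in place of 2.54 (change -3.58, SE 0.13, limma adjusted p = 5.5e-08).

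IL6, an inducer of the acute phase response, was at 31.4, 34.4 and 32.5 TPM in LA and at 119, 109 and 101 TPM in PGN. With RVT it was at 29.6, 25 and 27.2 TPM in LA and at 41.8, 37.6 and 40.4 TPM in PGN. The PGN libraries stayed above, with a difference of 1.71 without and 0.53 with RVT (change -1.18, SE 0.11, limma adjusted p = 3.73e-05). CSF2, the growth factor GM-CSF, had means of 4.36 ± 1.49 TPM in LA and 32.9 ± 4.2 TPM in PGN (SD, n = 3). IL24 had means of 0.427 ± 0.13 and 11.4 ± 7.25 TPM (SD, n = 3), and PGN replicate 1, at 19.8 TPM, was more than 2 times as high as the other PGN libraries at 7.08 and 7.34 TPM. Without that library the difference of 2.97 was 2.53. The cytokine higher with LA was TNFSF10, the death ligand TRAIL, at a mean of 5.02 TPM in LA and 0.95 TPM in PGN.

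All but 2 of the 21 NF-kB subunits and feedback genes compared had higher levels in every PGN library than in any LA library, and 7 were at least 2-fold higher. None was apart in the LA direction, and REL and TNIP2 overlapped. The median difference was 0.68 without RVT and -0.00 with it. The largest differences were those of TNFAIP3, a ubiquitin-editing enzyme that ends NF-kB signalling, BIRC3, an inhibitor of apoptosis, IER3, an early response gene, and TNFAIP2. TNFAIP3 was at 20.3, 15.6 and 16.9 TPM in LA, at 81.3, 75.8 and 68.6 TPM in PGN, at 25.7, 23.1 and 30 TPM in LA+RVT and at 30.4, 27 and 28.5 TPM in PGN+RVT. The groups that were well apart without RVT overlapped with it. TNFAIP2 kept the largest difference with RVT among these 4 genes, at 0.86 against 1.37 without. Limma called a lower difference with RVT for 16 of the 21 and a higher one for none.

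The sensors of peptidoglycan and their adaptors went both ways. Of 14 compared (of 19 listed), 1 was at least 2-fold higher with PGN and none with LA, 4 were apart on the PGN side and 7 on the LA side, and the median was -0.19, or 0.04 with medians equalised. TLR2, the receptor for bacterial lipoproteins and wall material, was low at 2.72, 3.76 and 1.85 TPM in LA and 1.16, 1.79 and 1.13 TPM in PGN. NOD2, which binds the muramyl dipeptide of peptidoglycan, was at 4.93, 4.11 and 3.79 TPM in LA and 2.78, 2.42 and 2.54 TPM in PGN. Both were higher in every LA library than in any PGN library, by less than the 2-fold limit on the log2(TPM + 1) scale. For TLR2 the groups were barely apart, at 1.85 TPM in the lowest LA library and 1.79 TPM in the highest PGN library. Neither change with RVT passed the test (limma adjusted p = 0.714 for TLR2 and 0.226 for NOD2). TLR6 and IRAK4 followed, with differences of -0.58 and -0.59. On the PGN side were IRAK2 and, named after their values were seen, IRAK1, RIPK2 and MYD88, which differed by 0.51, 0.37 and 0.30. IRAK2, a kinase of the receptor complex, was at 7.35, 6.57 and 6.89 TPM in LA and 22.5, 22.9 and 23.2 TPM in PGN.

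Antimicrobial and acute-phase genes went both ways. Of 11 compared (of 19 listed), PI3 and S100A7 were at least 2-fold higher with PGN and SAA2 with LA. PI3, the elastase inhibitor elafin, was at 56.7, 54.7 and 59.9 TPM in LA and 154, 149 and 165 TPM in PGN, and its difference of 1.43 stood at 1.64 with RVT. SAA2, an acute-phase serum amyloid, was at 160.0, 162 and 161 TPM in LA and 88.6, 74.1 and 76 TPM in PGN. Its difference of -1.01 was -0.19 with RVT (change 0.83, SE 0.097, limma adjusted p = 0.000234). CFB, complement factor B, was at means of 51.0 ± 3.13 TPM in LA and 25.9 ± 1.29 TPM in PGN (SD, n = 3), a difference of -0.95. SAA2 has a near-identical copy in SAA1, and how reads were shared between them is not given. The list's median was -0.18. With medians equalised it was 0.04, and SAA2 was no longer past the limit.

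Targets of the aryl hydrocarbon receptor, which senses planar ring compounds and drives their oxidation, gave some of the widest gaps. Of 6 compared, 3 were at least 2-fold higher with PGN and none with LA. CYP1A1 (chr15:74719542-74725610), the receptor's best known target, was at 1.58, 0.89 and 1.62 TPM in LA and at 22.9, 22.7 and 24.8 TPM in PGN. In all 6 libraries with RVT it was at or below 0.65 TPM, where the groups overlapped, against a 17.2-fold gap in mean TPM without RVT. CYP1B1 was at 12.2, 13.6 and 16.7 TPM in LA, 91.5, 82.4 and 84.7 TPM in PGN, 1.4, 1.06 and 0.76 TPM in LA+RVT and 3.08, 2.56 and 3.02 TPM in PGN+RVT. TIPARP, a feedback repressor of the receptor, had means of 15 ± 0.224 TPM in LA and 52.5 ± 6.06 TPM in PGN (SD, n = 3). Without RVT 3 of the 6 were apart on the PGN side and 2 on the LA side. Furthest to the LA side was ARNT, the receptor's partner and not a target, at means of 18.6 ± 1.43 TPM in LA and 12.5 ± 0.811 TPM in PGN (SD, n = 3). The list's median was 1 without and 0.11 with RVT, and with members this far apart it describes none of them closely.

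The keratinocyte differentiation list was the second group far to the PGN side, and part of this difference was also seen with RVT. The list also holds keratins of basal and activated epidermis, so its counts and median do not describe differentiation genes alone. Of 19 compared (of 28 listed), 12 were apart on the PGN side and 5 on the LA side. At least 2-fold higher were 11 with PGN and none with LA, and the list's median was 1.40. With RVT the count was 7 against 1, where 1.46% of all genes were called on the PGN side and 3.42% on the LA side, and the median was 0.87. SPRR1B, a precursor of the cornified envelope, was at 20.7, 17 and 19.2 TPM in LA and at 155, 157 and 157 TPM in PGN, and at 28.9, 28.2 and 31.1 TPM in LA+RVT against 86.6, 89.7 and 76.4 TPM in PGN+RVT. FLG, the source of filaggrin, was at 0.21, 0.15 and 0.21 TPM in LA and at 6.12, 6.44 and 6.55 TPM in PGN. KRT6B, a keratin of activated epidermis, was at means of 1.44 ± 0.267 and 13 ± 0.35 TPM, and SPRR3 at 3.73 ± 0.739 and 26.9 ± 1.81 TPM (SD, n = 3). Both pairs of groups were apart for these 4 genes, with smaller differences with RVT. The change of KRT6B did not pass the test (limma adjusted p = 0.0586). Limma called a lower difference with RVT for 8 of the 19 and a higher one for 2. The 5 on the LA side, named after their values were seen, were KRT10, TGM1, CNFN, KLK5 and KLK7, with differences from -0.39 to -0.83. KLK7, a protease that loosens the cornified layer, was at 53.8 TPM in LA and 29.9 TPM in PGN. The keratins KRT5, KRT14, KRT6A and KRT16, named in the same way, were like KRT6B at least 2-fold higher with PGN. KRT6B shares long stretches with KRT6A, and how reads were shared between them is not given.

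Genes of matrix, adhesion and wound repair were also on the PGN side. Of 29 compared, 7 were at least 2-fold higher with PGN and none with LA, 17 and 8 were apart in each direction, and the median was 0.40 without and 0.00 with RVT. THBS1, a matricellular glycoprotein, was at 159, 148 and 159 TPM in LA and at 731, 765 and 731 TPM in PGN, and at 258, 285 and 250.3 TPM against 362, 334 and 343 TPM with RVT. MMP9, a gelatinase, was at 5.92, 6.68 and 6.22 TPM in LA and at 41, 50.2 and 50.4 TPM in PGN. LAMA3, the alpha chain of the basement membrane laminin-332, had means of 297 ± 3.82 TPM in LA and 774 ± 34.9 TPM in PGN (SD, n = 3). MMP1, a collagenase, was low, at 0.68 ± 0.21 and 5.84 ± 1.11 TPM (SD, n = 3). With RVT, 4 of the 29 were at least 2-fold higher with PGN and none with LA, where 1.46% and 3.42% of all genes were. MMP9 was among the 4, at means of 16.9 TPM in LA+RVT and 41.3 TPM in PGN+RVT. Limma called a lower difference with RVT for 16 of the 29 genes and a higher one for 1.

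Among 24 immediate early genes, 2 were at least 2-fold higher with PGN and 2 with LA. FOSL1, a partner of JUN in AP-1, was at 154, 165 and 162 TPM in LA and at 396, 439.6 and 396 TPM in PGN, and MYC, a growth regulator, was at means of 45.0 ± 1.05 and 137 ± 3.34 TPM (SD, n = 3). With RVT, FOSL1 turned to the LA side, at 261, 293 and 268 TPM in LA+RVT and 213, 211 and 192 TPM in PGN+RVT. NR4A1, an orphan nuclear receptor, was at 15.9, 16.7 and 15.3 TPM in LA and at 4.54, 6.01 and 5.9 TPM in PGN. EGR1, a zinc finger factor induced by growth signals, was at 24.7, 22.8 and 21.6 TPM in LA and at 9.44, 9.68 and 9.77 TPM in PGN. Its gap was there with RVT too, at higher levels in both groups, 66.8 to 69.2 TPM in LA+RVT and 22 to 24.4 TPM in PGN+RVT.

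Of 30 genes of the unfolded protein and integrated stress responses, 3 were at least 2-fold higher with PGN. They were CEBPB, STC2 and SLC7A5, while the list's median of 0.05 was close to 0. SLC7A5, an amino acid transporter, was at means of 356 ± 4.1 TPM in LA and 939 ± 28.3 TPM in PGN (SD, n = 3). CEBPB, a transcription factor of acute-phase and differentiation genes, was at 37.9, 39.6 and 32.2 TPM in LA and at 132, 148 and 98.8 TPM in PGN. Its groups met with RVT, at 80, 68.1 and 62.8 TPM in LA+RVT and 76.8, 65.8 and 59.5 TPM in PGN+RVT.

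Genes of hypoxia and glycolysis differed by less. Of 29 compared, 18 were apart on the PGN side and 7 on the LA side, with 1 on each side at least 2-fold, and the median was 0.33. With medians equalised 4 genes were past the limit on the PGN side and none on the LA side. LDHA, lactate dehydrogenase A, was at means of 568 ± 22.7 TPM in LA and 1100.2 ± 89.2 TPM in PGN (SD, n = 3), and VEGFA, an angiogenic factor, at 27.6 ± 3.22 and 55.3 ± 1.46 TPM. DDIT4, a stress-induced inhibitor of mTOR, was at 182 ± 13.4 and 389 ± 13.5 TPM (SD, n = 3). The gene at least 2-fold higher with LA was ENO2, a neuronal-type enolase, at 32.8 ± 2.06 and 14.7 ± 1.13 TPM (SD, n = 3).

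On the LA side, the interferon response list lay furthest out. Of 28 compared (of 31 listed), 7 were at least 2-fold higher with LA and none with PGN, 23 were apart on the LA side and 3 on the PGN side, and the median was -0.64. With medians equalised the median was -0.41 and 4 genes stayed past the 2-fold limit. IFI27, an interferon-inducible mitochondrial protein, was at 249.6, 256 and 248 TPM in LA and at 87.3, 105 and 101 TPM in PGN. STAT2 and IRF9 are parts of the interferon-activated factor ISGF3. STAT2 was at 42.2, 40.9 and 38.2 TPM in LA and 16.1, 16.1 and 17.5 TPM in PGN, and IRF9 at 33.9, 29.5 and 30.1 TPM and 14.2, 13.5 and 13.9 TPM. MX1, a GTPase that traps viruses, was at 30.7, 27.8 and 25.6 TPM in LA and 13.3, 11.8 and 12.8 TPM in PGN. With RVT the groups stayed apart for these 4 genes and the list's median was -0.22. Limma called a higher PGN minus LA difference with RVT for 12 of the 28 and a lower one for none. STAT2 and IRF9 each overlap another gene on the same strand, and reads from the overlap could be counted for either.

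PPAR targets and fatty acid oxidation genes were spread over the LA side in small steps. Of 28 compared (of 36 listed), 2 were at least 2-fold higher with LA and none with PGN, 21 were apart on the LA side and 1 on the PGN side (46.4% and 19.4% of all genes were), and the median was -0.40. With medians equalised the median was -0.17 and 1 gene was past the limit. PDK4 (chr7:95583499-95596491), a kinase that shuts glucose carbon out of mitochondria and a classical fatty acid response gene, was at 2.5, 2.39 and 1.85 TPM in LA and at 0.14, 0.08 and 0.06 TPM in PGN. With RVT it was at 0.73, 0.8 and 1.11 TPM in LA and at 0.11, 0.15 and 0.18 TPM in PGN. It was low throughout, the groups were apart in both pairs, and the difference was -1.57 and -0.71 (change 0.86, SE 0.23, limma adjusted p = 0.0264). This p lay above 0.05 when 1 of 5 libraries was left out. It was 0.0512 without LA replicate 1, and 0.0574 and 0.0543 without LA+RVT replicates 1 and 2. Without PGN+RVT replicates 2 and 3 it was 0.0520 and 0.0541. With 0.1 TPM added in place of 1 before the logarithm, the change was 1.63 (limma adjusted p = 0.0832). PLIN2, the coat protein of lipid droplets, was at 7.54, 11.1 and 9.77 TPM in LA and at 3.97, 3.59 and 4.03 TPM in PGN, and at 8.53, 7.15 and 8.45 TPM against 4.49, 5.27 and 4.32 TPM with RVT. Its difference was -1.09 and -0.67, a change that did not pass the test (limma adjusted p = 0.144).

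ACADVL, the very long chain acyl-CoA dehydrogenase of fatty acid oxidation, was at 542, 509.8 and 545 TPM in LA and at 283, 287 and 266 TPM in PGN, and its difference was -0.93 in both pairs. ACADS, which acts on short chains, was at means of 14.2 ± 0.125 TPM in LA and 6.77 ± 0.657 TPM in PGN (SD, n = 3). CPT1A, which commits fatty acids to mitochondrial oxidation, was at 42.9, 38.8 and 39.8 TPM in LA and at 30.4, 27.4 and 28.3 TPM in PGN. Its difference of -0.48 was -0.18 with RVT (change 0.31, SE 0.076, limma adjusted p = 0.02). ANGPTL4, another PPAR target, overlapped between the groups, at 4.07, 4.11 and 4.3 TPM in LA and 5.34, 5.2 and 4.19 TPM in PGN. PPARG, the receptor of sebocyte and adipocyte differentiation, was higher with PGN, at 37.8, 39.2 and 39.2 TPM against 24.3, 22.7 and 22 TPM in LA. With RVT its groups overlapped, at 20.8, 23.3 and 22.6 TPM in LA+RVT and 22.1, 23.6 and 23.7 TPM in PGN+RVT (change -0.67, SE 0.082, limma adjusted p = 0.00031).

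**Figure D3:**
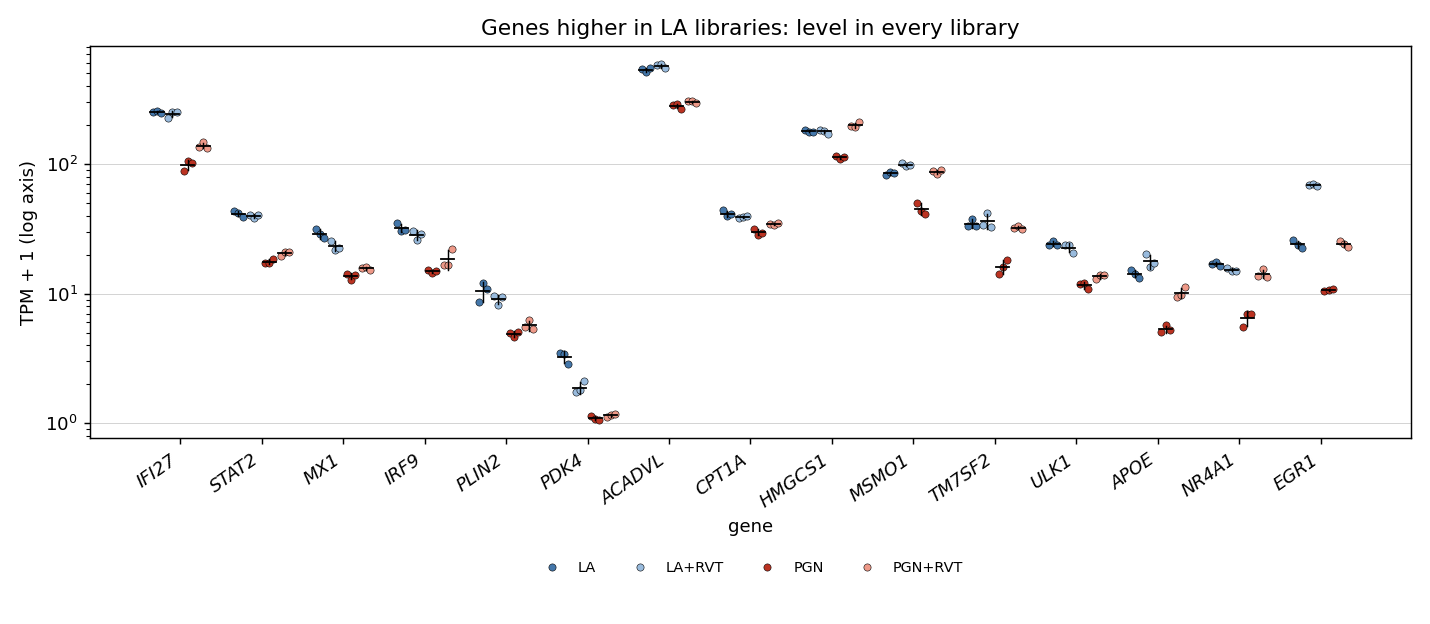
TPM + 1 (log axis) of 15 genes higher in LA, in every library, with colours and bars as for the PGN-side genes. PDK4 stands at 1.85 to 2.5 TPM in LA and at 0.06 to 0.14 TPM in PGN, and the PGN+RVT points of HMGCS1 lie above the LA+RVT points, against the order without RVT.

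Lipid droplet and lipolysis genes included G0S2, with a 5-fold gap in mean TPM. Of 14 compared, G0S2 was at least 2-fold higher with PGN, and PLIN2 and HSD17B11 with LA. G0S2, an inhibitor of the triglyceride lipase PNPLA2, was at 103, 103 and 115 TPM in LA and at 524, 577 and 502 TPM in PGN. With RVT the levels were 204, 202 and 203 TPM in LA and 241, 268 and 222 TPM in PGN, which were apart by a difference of 0.26 in place of 2.31. HSD17B11, a lipid droplet dehydrogenase, was at 6.56, 9.24 and 6.17 TPM in LA and 3.18, 3.15 and 2.15 TPM in PGN. The list's median was -0.11. With medians equalised it was 0.11, and PLIN2 and HSD17B11 were no longer past the limit. PNPLA2 itself was named after its value was seen, at 84.2 TPM in LA and 54.6 TPM in PGN.

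Cholesterol synthesis and uptake genes lay slightly further to the LA side than all genes, and not on that side with RVT. Of 30 compared (of 31 listed), 19 were apart on the LA side (46.4% of all genes were) and 3 on the PGN side, 1 was at least 2-fold higher with LA, and the median was -0.32. With medians equalised the median was -0.10 and no gene was past the limit. HMGCS1 (chr5:43289395-43313512), which makes the HMG-CoA of the mevalonate pathway, was at 183, 177 and 176 TPM in LA and at 114, 109 and 113 TPM in PGN. With RVT it was at 182, 179 and 171 TPM in LA and at 195, 192 and 208 TPM in PGN. The groups were apart in opposite directions, with a difference of -0.67 without and 0.16 with RVT (change 0.83, SE 0.057, limma adjusted p = 6.11e-06). TM7SF2 and MSMO1, enzymes of the later steps, had differences of -1.11 and -0.92 without RVT and -0.16 and -0.17 with it. STARD4, a sterol carrier, was at means of 18.4 ± 1.4 and 8.85 ± 1.16 TPM (SD, n = 3). Limma called a higher difference with RVT for 23 of the 30 genes (7.88% of all genes) and a lower one for none (7.15%), and the median with RVT was 0.12.

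Fatty acid synthesis and desaturation genes were closer. Of 20 compared, 2 were at least 2-fold higher with LA, SCD5 and ACACB (the latter named after its value was seen), and the median was -0.31. With medians equalised the median was -0.09 and neither gene was past the limit. FASN, the fatty acid synthase, was at 76.3, 70 and 74.7 TPM in LA and at 68.8, 75.8 and 87.5 TPM in PGN, and SCD, the main delta-9 desaturase, at 125, 122 and 117 TPM and 129, 116 and 128 TPM. For both the groups overlapped. With RVT they were apart on the PGN side, FASN at 78.1, 84 and 83.3 TPM against 124, 125 and 121 TPM (change 0.52, SE 0.10, limma adjusted p = 0.00575) and SCD at 125, 122 and 119 TPM against 168, 160.0 and 184 TPM (change 0.45, SE 0.079, limma adjusted p = 0.00306). SCD5, the second desaturase, was at means of 27.7 ± 0.989 TPM in LA and 12 ± 0.302 TPM in PGN (SD, n = 3), and its difference of -1.14 was -1.03 with RVT. None of 16 triglyceride and wax ester synthesis genes was past 2-fold in either direction, with a median of -0.26. With medians equalised the median was -0.03 and 1 gene was past the limit on the PGN side. Of 9 sterol efflux genes (median -0.22, or 0.01 with medians equalised), APOE, a lipid-carrying apolipoprotein, was higher with LA, at 14.1, 13.3 and 12.3 TPM against 4.01, 4.7 and 4.2 TPM.

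The AMPK list, named for the energy-sensing kinase of the study's title, had a median of -0.51, or -0.29 with medians equalised, and of -0.31 with RVT. Of 18 compared, 14 were apart on the LA side and 1 on the PGN side (46.4% and 19.4% of all genes were), and no gene was past the 2-fold limit with medians equalised. Without that step ULK1, an autophagy kinase that AMPK phosphorylates, was at least 2-fold higher with LA, at means of 23.3 ± 1.15 TPM against 10.6 ± 0.674 TPM (SD, n = 3). PRKAA1, the main catalytic subunit, was at 111, 89.5 and 98.7 TPM in LA and at 87.5, 71.4 and 72.5 TPM in PGN. PRKAA2, the other catalytic subunit, was at 2.27, 2.13 and 2.48 TPM in LA and at 1.15, 0.96 and 1.16 TPM in PGN. Both were higher in every LA library than in any PGN library, by less than the 2-fold limit on the log2(TPM + 1) scale. For PRKAA1 the groups were barely apart, at 89.5 TPM in the lowest LA library and 87.5 TPM in the highest PGN library. Its difference of -0.37 was -0.17 relative to the median of all genes. Neither change with RVT passed the test (limma adjusted p = 0.964 for PRKAA1 and 0.84 for PRKAA2).

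Few cell cycle, redox and mitochondrially encoded genes were past the 2-fold limit. Of 40 DNA replication genes, 1 was at least 2-fold higher with LA and none with PGN, with a median of -0.22. None of 40 mitosis genes (median -0.18), 21 NRF2 target genes (median 0.03) or 13 mitochondrially encoded genes (median -0.20) was past 2-fold in either direction. With medians equalised these medians were 0.00, 0.05, 0.26 and 0.03, and no replication gene was past the limit. With RVT, limma called a higher PGN minus LA difference for 15 of the 40 mitosis genes and a lower one for 1.

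**Figure D4:**
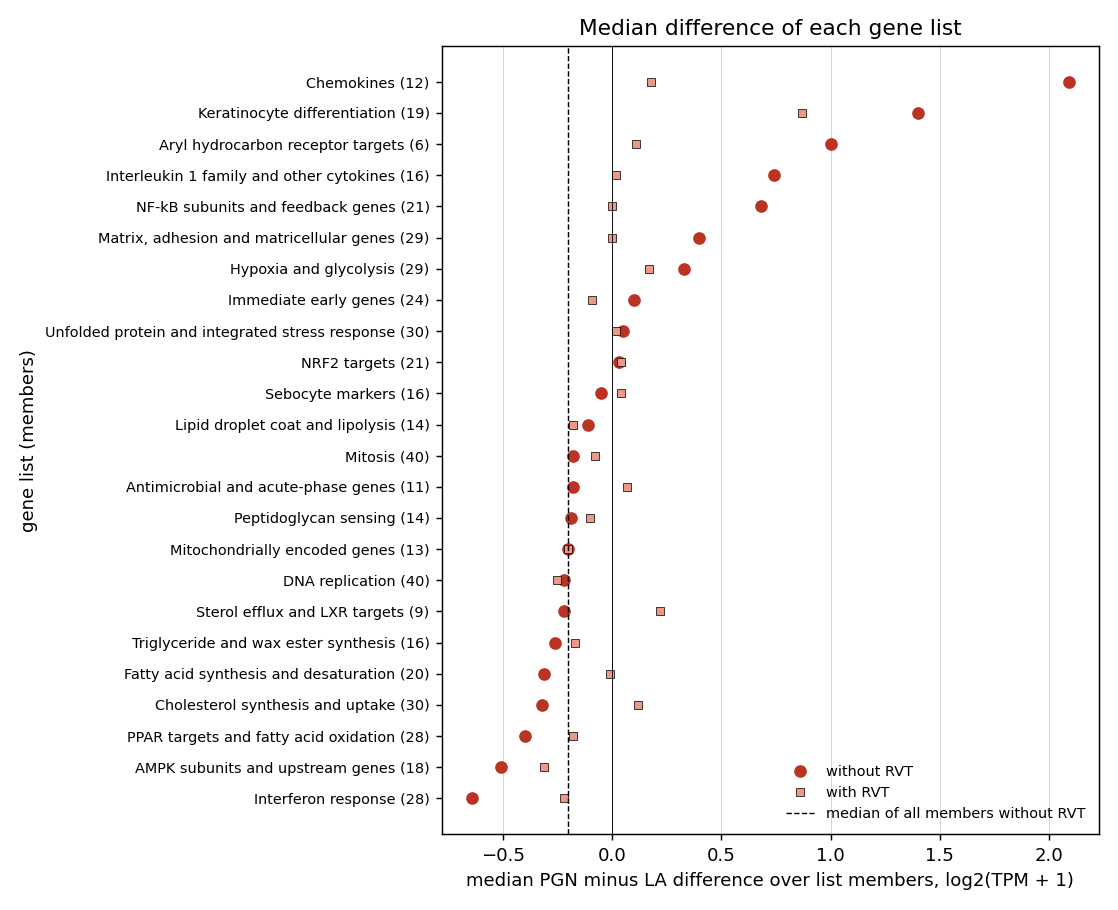
Median PGN minus LA difference (log2(TPM + 1), horizontal axis) over the members of each gene list with 5 or more members (rows, number of members in parentheses), without RVT (circles) and with RVT (squares); the dashed line is the median of all 15001 genes, -0.20. Chemokines reach 2.09 and the interferon list -0.64 without RVT, and at 0.87 the keratinocyte list has the highest median with RVT.

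Most of the largest differences between the tables were not those of the stimulus-response genes. Among protein-coding genes reaching 10 TPM on average in the group where they were higher, the 10 largest on the PGN side were PIGY, AC010646.1, HBB, AC013394.1, SLC9C1, CXCL1, CXCL8, HBA2, HBA1 and EYS. Apart from the 2 chemokines, these differences were about as large with RVT, and no change among these 8 passed the limma test. PIGY, a subunit of the enzyme that starts GPI anchors, was listed at 0 in all 6 libraries of the LA table and at 34 to 40.1 TPM in the libraries of the PGN table. PYURF, whose locus it shares, had exactly PIGY's value in all 6 libraries of the PGN table. The sum of both genes was 69 ± 2.23 TPM in LA and 72.1 ± 3.49 TPM in PGN (SD, n = 3).

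NR2F6, an orphan nuclear receptor, and AC010646.1, a gene model that reaches its locus on chromosome 19, mirrored each other. NR2F6 was at 25.4, 26.2 and 24.7 TPM in LA and at 3.93, 0 and 0 TPM in PGN, while AC010646.1 was listed at 0 in LA and at 29.7, 34.3 and 29.2 TPM in PGN. Their sum was 25.4 ± 0.766 TPM in LA and 32.4 ± 2.78 TPM in PGN (SD, n = 3). The readthrough models ATP5MF-PTCD1 and ARPC4-TTLL3 were at means of 103 and 46.3 TPM in LA and of 3.68 and 2.18 TPM in PGN. ATP5MF, an ATP synthase subunit, and ARPC4, an actin nucleation subunit, which they overlap, were at 798 and 79.9 TPM in LA and at 1139 and 112 TPM in PGN. The 10 largest on the LA side were ATP5MF-PTCD1, NR2F6, ARPC4-TTLL3, FKBP1C, ZNF254, SGCD, GPRC5D, AL024498.2, AL117348.2 and AC010616.1, and no member of the stimulus-response lists was among them. In the RPL22 family, the processed copy RPL22P1 was at 79.1, 176 and 99.4 TPM in LA and listed at 0 in all 6 libraries of the PGN table, while RPL22 itself was at 539 ± 26.7 TPM in LA and 1512 ± 106 TPM in PGN (SD, n = 3). In all, 67 genes were listed at 0 in every library of the LA table, 4 of them protein-coding, and 55 in every library of the PGN table, 9 of them protein-coding. PYURF, ATP5MF, ARPC4 and RPL22 were named after their values were seen.

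Haemoglobin transcripts, which belong to red cells, stood out in the PGN table. HBB, HBA1 and HBA2 summed to 0 to 0.67 TPM in LA and 0 to 0.3 TPM in LA+RVT, but to 39.2 to 178 TPM in PGN and 47.4 to 62.5 TPM in PGN+RVT. HBB (chr11:5225464-5229395) was listed at 0 in all 6 libraries of the LA table and was at 20.8, 15.7 and 65.9 TPM in PGN. PGN replicate 3 was the highest for each of the 3 genes, and without it the differences were 4.25 for HBB, 3.58 for HBA1 and 3.44 for HBA2. HBA1 and HBA2 are near-identical copies, and how reads were shared between them is not given. The 8 rows of 5.8S ribosomal RNA among the genes compared were all called on the PGN side. FP671120.6, a long noncoding gene model on chromosome 21, was at 122, 229 and 153 TPM in PGN and listed at 0 in LA. The part of these transcripts in other genes' differences was not tested.

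With RVT in both groups the gap between the stimuli was narrower. At least 2-fold differences numbered 219 on the PGN side (1.46%) and 513 on the LA side (3.42%), with 2684 (17.9%) and 6469 (43.1%) genes apart, and the median difference was -0.16. Both pairs of groups had the same call for 149 genes on the PGN side, which are 42.8% of the calls without RVT and 68% of those with it, and for 369 genes on the LA side, which are 40.8% and 71.9%. Opposite calls were made for 3 genes. By limma the PGN minus LA difference was lower with RVT for 1073 genes (7.15%) and higher for 1182 (7.88%) at an adjusted p under 0.05.

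**Figure D5:**
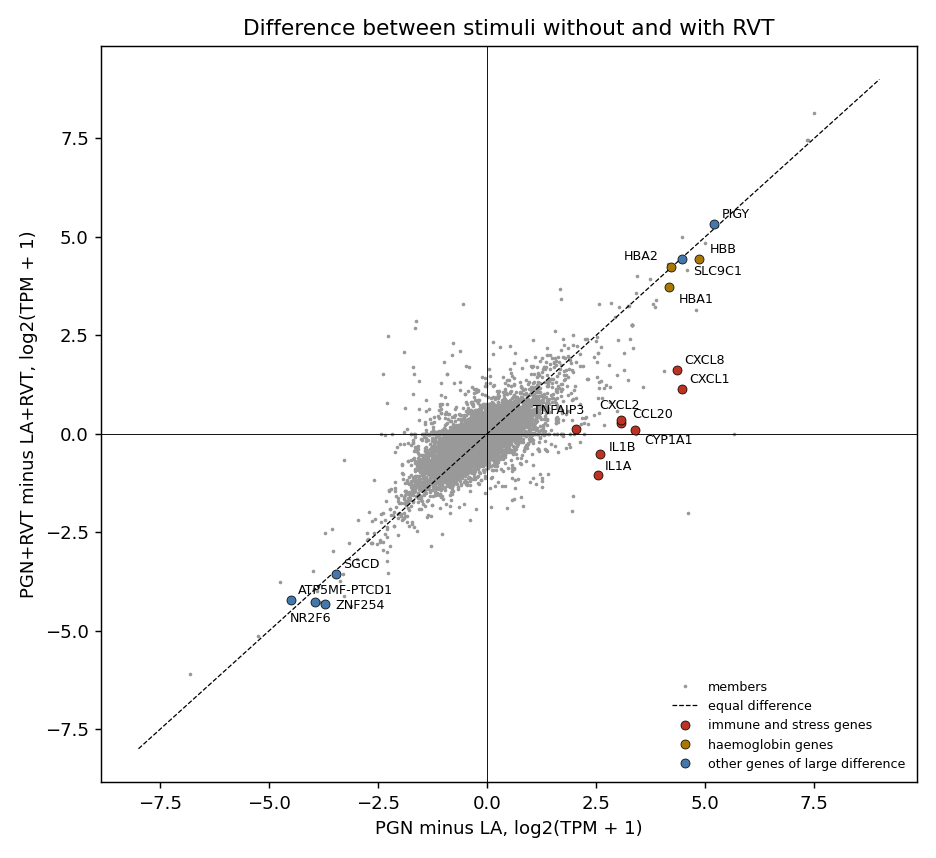
PGN minus LA difference without RVT (horizontal axis) against PGN+RVT minus LA+RVT (vertical axis), both in log2(TPM + 1), for each gene compared (grey), with named genes in colour and the line of equal difference dashed. PIGY and the haemoglobin genes lie on or near the line, while CXCL1 lies at 4.46 and 1.14 and IL1A at 2.54 and -1.05.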

How the data were processed

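The 12 RNA-seq libraries of SZ95 sebocytes form 4 groups of 3, and titles gave each library's group and replicate number. Values were deposited by the authors in TPM, rounded to 2 decimals, in 1 table for the LA and LA+RVT libraries and 1 for the PGN and PGN+RVT libraries. The build GRCh38.p13 and the tools DESeq2 1.24.0, RSEM 1.3.1 and HISAT2 2.1.0 are named in the submitters' processing notes without saying which step each served. The gene models behind each table are not given in the sources. Columns summed to 994373 to 997060 TPM. TPM keeps no read depth, so no counting error can be given. Of 60630 shared identifiers, 1432 carry different names in the tables.

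Values were transformed as log2(TPM + 1) and every difference is on that scale, on which low genes move less than in TPM. LA and PGN were compared by levels and within-library ranks with no test. The contrast (PGN+RVT minus PGN) minus (LA+RVT minus LA) was fitted in R 4.3.3 by limma 3.58.1 and tested (variance trend on, two-sided, Benjamini-Hochberg over 15001 genes, threshold 0.05). Positions, types and lengths came from GENCODE 29 (GRCh38), matched by identifier for 99.3% of genes, and promoters from RefSeq (GRCh38.p14), matched by symbol. The limma step was tested on simulated data.

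The genes, lists and tests were chosen with earlier results of these data known. Named genes are the 10 protein-coding genes with the largest difference on each side (groups apart, at least 10 TPM in the higher), the 5 highest of each group, up to 4 per list by absolute difference (at least 5 TPM), a set of 19 background genes, those next to the 1 TPM limit, and 5 listed at 0 in all libraries of 1 table. Genes of the Y chromosome and XIST were left out, and some genes that the rule names are not reported here. Alternatives were a pseudocount of 0.1, no filter, a minimum mean of 5 TPM, equalised medians, rescaling without mitochondrially encoded genes, a replicate block and leaving out each library.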

Additional observations from a re-analysis of the deposited data

Results flagged for a closer look

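For 11 of the background genes the RVT effect differed between the stimuli by the limma test of the difference itself, given here as the RVT effect with PGN minus that with LA on the log2(TPM + 1) scale. Among cytokines and chemokines the value was -3.58 for IL1A, -3.12 for IL1B, -2.72 for CXCL8 and -1.18 for IL6. Among lipid genes it was 0.86 for PDK4, 0.83 for HMGCS1, 0.52 for FASN, 0.45 for SCD and 0.31 for CPT1A, and it was -0.67 for PPARG. KRT7, the sebocyte keratin, had -0.36. The calls for PDK4 and CPT1A were not made under every alternative, as given below. LA and PGN libraries lie in tables made with different annotations, and the part of these in the values was not tested.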

How the results depend on the processing

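No named gene's called change with RVT changed sign under an alternative that was run. No named gene past the 2-fold limit changed sign either, but there the call rule leaves little room for it. All libraries of 1 group lie above those of the other, so leaving out a library or changing the pseudocount cannot turn the sign. The median shift of -0.20 is also smaller than the limit of 1. Equalised medians turned the sign of the median for the antimicrobial, peptidoglycan sensing, lipid droplet, sterol efflux, sebocyte, mitosis, DNA replication, melanocyte and mitochondrially encoded lists. A minimum mean of 5 TPM turned those of the peptidoglycan sensing and sebocyte lists. Other alternatives turned values near 0 for NRF2 targets, FASN and SCD. They also turned the median of the endothelial list, which holds only CDH5 under the 1 TPM limit and more markers without it. Genes at least 2-fold higher with LA numbered 1492 with a pseudocount of 0.1, 473 with a minimum mean of 5 TPM and 464 with medians equalised, against 905. Those higher with PGN numbered 226 with the minimum of 5 TPM and 632 with medians equalised, against 348, and the interferon list had 4 genes past the limit with medians equalised. Without any 1 library the counts were 362 to 372 with PGN and 907 to 968 with LA, and the difference changed with RVT downwards for 833 to 1072 genes and upwards for 877 to 1199. Same-numbered libraries did not vary together (correlations -0.0683 to 0.0615), and a fit with the replicate number as a block gave 836 lower and 908 higher calls, and the calls for PDK4 and CPT1A were not made there (limma adjusted p = 0.0951 and 0.0519). Of 2553 alternative values for the change of a gene's difference, 2456 stayed on their side of the threshold, 64 lost the call and 33 gained it. Of 960 alternative values for the PGN minus LA difference itself, 117 were classed as moved and 843 as the same. Of 307 alternative list medians 70 were classed as moved, and of 234 alternative counts 22. TPM without counts leaves low genes such as PDK4, TLR2 and FLG with an error that only 3 libraries a group can show.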
